A study of Rattus norvegicus with 18 samples.

Results

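Genes named as translation initiation or elongation factors were followed in rats on 3 diets, in mononuclear cells of the blood (PBMC: mainly lymphocytes and monocytes, isolated on a gradient). A gene was taken when its name on the array began with Eif1 to Eif6, Eef1 or Eef2, without the eIF2 kinases (Eif2ak), which left 47 genes. Of these, 44 had a probe whose signal exceeded background clearly on 5 or more of 18 arrays and were measured, out of 21585 genes tested in all, and the brightest probe stood for each gene. Eef1a2, Eif5a2 and Ago3 were well above background on 0 of 18 arrays, 43 of the 44 genes were on all 18, and Ago1 on 17. The name rule also takes Ago1, Ago2 and Ago4, which the array lists as Eif2c genes. These are Argonaute proteins of the microRNA pathway rather than translation factors.

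The 18 animals were male Wistar rats. They were 2 months old when the diets began and stayed on them for 4 months, and a 14 h fast preceded sampling. Of the energy in the control diet (LFD, low in fat), fat made up 10%, protein 20% and carbohydrate 70%, and rats ate it freely. For HFD, high in fat, these shares were 60%, 20% and 20%. For HPD, high in protein and mainly casein, they were 10%, 45% and 45%. Rats on HFD and HPD received as much energy per day as LFD rats took in. Each diet had 6 rats, 1 rat per array, and every value below is a log2 ratio of the Cy5-labelled RNA of 1 rat to a Cy3-labelled equimolar pool of the samples. Dyes were not swapped, so a dye offset of a probe cannot be told apart from its level against the pool. A value above or below 0 therefore need not mean more or less RNA than the pool. The labels of 1 array disagree: its title says HFD replicate 7, but both its source name and its description say HPD. It is treated here as HPD replicate 7.

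Initiation starts when eIF2 brings the initiator tRNA to the small ribosomal subunit, which eIF3 and eIF1A hold open, and when the cap-binding protein eIF4E, the scaffold eIF4G and the helicase eIF4A load that subunit onto an mRNA. eEF1A then delivers each aminoacyl-tRNA and eEF2 moves the ribosome on by a codon. Supply of amino acids and insulin acts on this machinery at known points. The kinase mTOR restrains the eIF4E-binding inhibitors and eEF2 kinase, and kinases of the stress response phosphorylate eIF2, which blocks its exchange factor eIF2B. These switches act on proteins, which arrays of mRNA do not measure.

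The measurements had the following limits. Per array, 53.1 to 63.4% of probes gave a Cy5 signal well above background, and precision rests on 6 arrays per diet. All 8 measured T cell markers, 5 of 5 B cell and 6 of 6 NK cell markers and 6 of 7 monocyte markers were well above background on every array. So were 6 of 7 red cell precursor, 6 of 6 platelet and 3 of 5 neutrophil markers. In HPD vs LFD the median log2 difference was -0.78 over red cell precursor markers (7 of 7 lower), -0.58 over platelet markers (6 of 6 lower), -0.40 over monocyte markers (7 of 7 lower) and -0.13 over NK cell markers (6 of 6 lower), with 0 adjusted calls in each list. In HPD vs HFD these medians were -0.74, -0.23, -0.32 and -0.19, again with every measured marker of the 4 lists lower and 0 adjusted calls. The other lists were mixed. In HPD vs LFD 4 of 8 T cell, 3 of 5 B cell and 2 of 5 neutrophil markers stood higher. Their medians were 0.021, 0.065 and -0.16, and 55% of all genes stood higher. In HPD vs HFD 6 of 8, 2 of 5 and 3 of 5 stood higher, beside 54.5% of all genes. In HFD vs LFD 6 of 6 platelet markers were lower. There, 4 of 7 red cell precursor, 6 of 7 monocyte and 5 of 6 NK cell markers were higher. The mean log2 ratio of the platelet list ran from -0.74 to 1.32 over LFD, -2.22 to 1.05 over HFD and -1.23 to -0.043 over HPD arrays. That of the red cell precursor list ran from -1.11 to 0.99, -1.52 to 0.90 and -1.38 to -0.22. In a mixed sample fewer cells of a type and less RNA per cell cannot be told apart, and the part of cell makeup in the values below was not tested.

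No translation factor passed the test for diet. Of the 44 genes, 0 had an adjusted p under 0.05 by limma in HFD vs LFD, HPD vs LFD or HPD vs HFD, where 0% of all genes tested were called in each. At an unadjusted p under 0.05 there were likewise 0 of 44 in each comparison, beside 2.11%, 2.98% and 3.12% of all genes. For any diet, 0 of 44 reached an unadjusted p under 0.05, beside 2.43% of all genes, and 0% of all genes passed after adjustment. In no gene of the set did the 6 arrays of a diet lie wholly above or below those of another, which held for 0.0927%, 0.088% and 0.236% of all genes. The lowest adjusted p of a member was 0.9999 in HFD vs LFD and in HPD vs LFD, and 0.994 in HPD vs HFD.

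The differences were small and lay on both sides of 0. In HFD vs LFD 25 of 44 members stood higher, beside 50.2% of all genes, with a median log2 difference of 0.012. In HPD vs LFD 28 of 44 stood higher, beside 55% of all genes, with a median of 0.034. In HPD vs HFD 28 of 44 stood higher, beside 54.5%, with a median of 0.0077. The medians over all genes tested were 0.00067, 0.023 and 0.020. No direction held under every setting. With every array centred on its median, 19, 26 and 29 stood higher, and in the authors' table of log2 values 12, 31 and 38, where the medians over all genes were -0.025, 0.041 and 0.064. After normexp background correction the counts were 26, 25 and 21 without marked spots and 24, 22 and 23 with all spots. With slide as a block they were 24, 28 and 22. HFD and HPD were compared with the same LFD arrays, so the first and second counts share their control. An absolute log2 difference over 0.3 was seen for Eif3k in HFD vs LFD, Eef2k in HPD vs LFD, and Eif3k and Ago4 in HPD vs HFD. This is 1, 1 and 2 of 44, beside 14%, 16.7% and 17.5% of all genes.

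**Figure D1:**
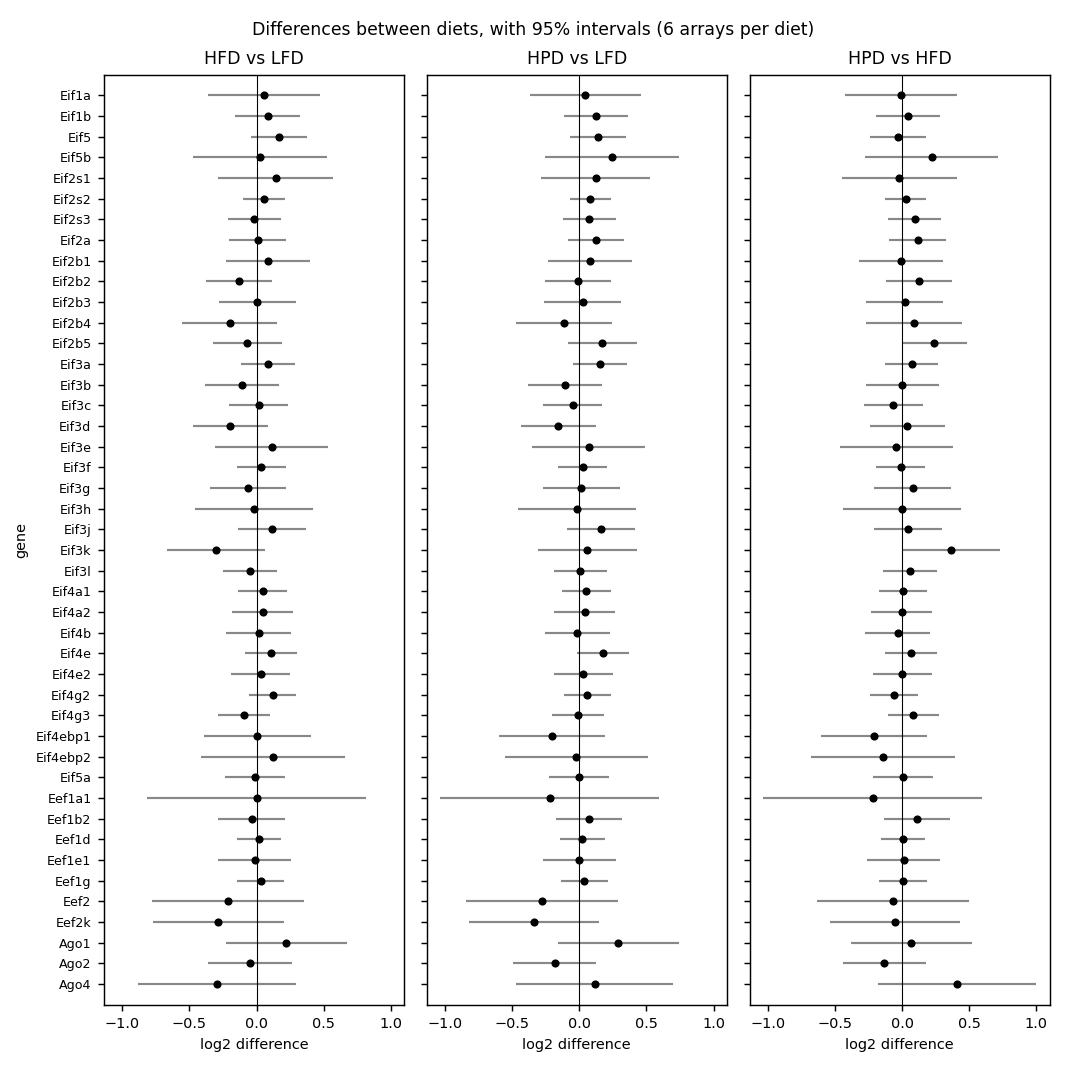
Log2 difference (x axis) of each of 44 genes (y axis) in the 3 comparisons, with points for the limma estimate and lines for the 95% interval from 6 arrays per diet. Every interval crosses 0, most lie within 0.5 of it, and those of Eef1a1, Ago4 and Eef2 are among the widest.

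The intervals say how large a change could have gone unseen. The standard error of a member ran from 0.073 to 0.387, and the median half-width of the 95% interval was 0.25 in each comparison. The whole interval lay within 0.5 of 0 for 33 members in HFD vs LFD and for 35 in each of the other comparisons. It lay within 0.25 for 10 members in each. The interval lay within 1 for 44, 43 and 43 members. The estimates for Eif2s2, the beta subunit of eIF2, and for the eEF1 exchange subunit Eef1d were among the tightest, and that of Eef1a1 the loosest.

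**Figure D2:**
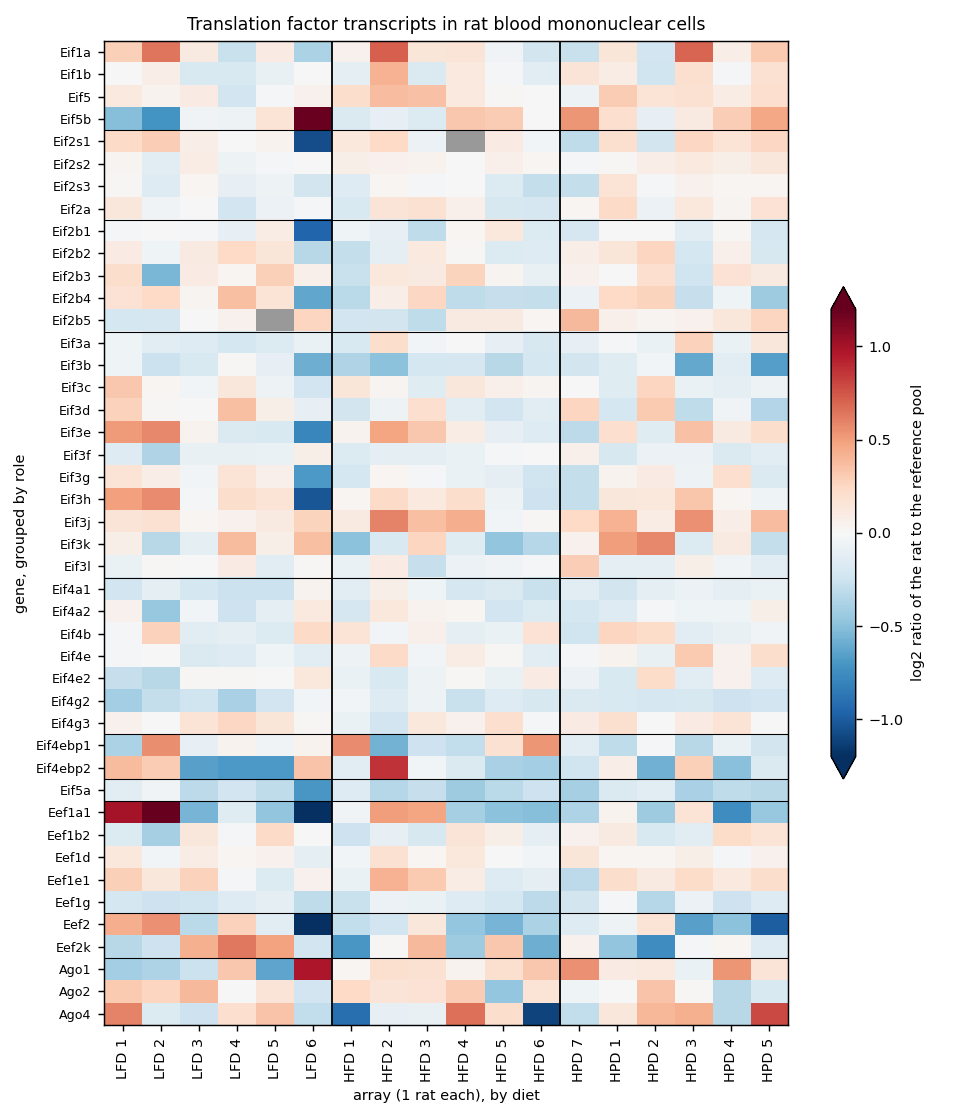
Log2 ratio of each of 44 genes (rows, grouped by role) on each of 18 arrays (columns, by diet), red above and blue below the reference pool, grey where missing. The colour scale ends at 1.2 on either side, and the widest spread over members lies in the columns LFD 6 (SD 0.53) and LFD 2 (SD 0.37).

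Members of the start codon machinery did not pass the test in any comparison. All 4 (Eif1a, Eif1b, Eif5 and Eif5b) were higher in HFD and in HPD than in LFD, with medians of 0.067 and 0.13, but with slide as a block 2 of 4 were higher in HFD (Eif1a at -0.021 and Eif5b at -0.0070). Eif5, the GTPase activator that releases eIF2 at the start codon, ran from -0.23 to 0.12 on LFD arrays (median 0.05), from -0.0036 to 0.37 on HFD arrays (0.16) and from -0.064 to 0.30 on HPD arrays (0.17). The highest values were HFD replicates 2 and 3, and the 3 ranges overlapped. Its log2 difference was 0.17 ± 0.10 (SE) in HFD vs LFD (limma, unadjusted p 0.106) and 0.14 ± 0.10 in HPD vs LFD. These are values of its brightest probe. The other, 2424 bases upstream, ran more widely. It ran from -0.99 to 0.73 on LFD, -0.43 to 0.76 on HFD and -0.60 to 0.41 on HPD arrays. Eif5b, which joins the large ribosomal subunit, had its lowest value, -0.72, and its highest, 1.19, on 2 arrays of one diet, LFD replicates 2 and 6. The HFD arrays lay between -0.17 and 0.32 and the HPD arrays between -0.10 and 0.53, inside the LFD range.

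The subunits of eIF2 and of its exchange factor eIF2B showed the same overlap of diets. The alpha subunit Eif2s1, the site of phosphorylation by the stress kinases, ran from -1.06 to 0.29 on LFD arrays, -0.071 to 0.24 on the 5 HFD arrays with a value and -0.31 to 0.25 on HPD arrays. The gamma subunit Eif2s3, which binds GTP and the tRNA, ran from -0.22 to 0.02, -0.29 to 0.02 and -0.29 to 0.17. All 4 genes of this group (Eif2s1, Eif2s2, Eif2s3 and Eif2a) were higher in HPD than in LFD, by 0.075 to 0.12. Eif2a is grouped here by its name and is a separate factor, not a subunit of eIF2. Eif2s1 was by far lowest on LFD replicate 6, followed by HPD replicates 7 and 2 at -0.31 and -0.22, and the brightest probe of Eif2s3 kept within a narrow band. Its other probes, well above background on 18 arrays, ran more widely, from -0.78 to 0.72 and from -0.67 to 0.65.

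Eif2b5, the catalytic epsilon subunit of eIF2B, gave 1 of the smallest p values of the set. It ran from -0.21 to 0.26 on the 5 LFD arrays with a value (median 0.01), from -0.31 to 0.11 on HFD arrays (-0.10) and from 0.030 to 0.39 on HPD arrays (0.10). All 6 HPD arrays lay above 0, yet 2 HFD arrays at 0.11 reached into their range. The log2 difference was 0.24 ± 0.12 in HPD vs HFD (limma, unadjusted p 0.0531, adjusted p 0.994), 0.17 ± 0.12 in HPD vs LFD and -0.07 ± 0.12 in HFD vs LFD. With slide as a block the HPD vs HFD value was 0.28 ± 0.12. It was 0.47 within slide 2 (3 HPD arrays and 1 HFD array) and 0.19 within slide 3 (1 HPD and 2 HFD arrays). The single HFD array was replicate 3, the lowest of its diet at -0.31. The single HPD array was replicate 5 at 0.25, exceeded in its diet only by replicate 7 at 0.39, whose labels conflict. Values that rest on single arrays cannot tell whether the difference holds within slides. The probe of Eif2b5 lay on chromosome 11, 82634786 to 82634845, of the rat assembly rn4. Of the other 4 eIF2B subunits, 3 stood higher in HPD than in HFD, and 0 of the 4 did with slide as a block (-0.16 to -0.057). In HFD vs LFD Eif2b4 stood at -0.20 ± 0.17 and Eif2b2 at -0.13 ± 0.12.

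eIF3, the large scaffold of initiation, was represented by 11 subunits, of which 5 stood higher in HFD than in LFD, 7 in HPD than in LFD and 8 in HPD than in HFD. With slide as a block these counts were 7, 5 and 5. Eif3k, a small peripheral subunit, differed most. It ran from -0.34 to 0.38 on LFD arrays (median 0.07), from -0.49 to 0.26 on HFD arrays (-0.26) and from -0.28 to 0.58 on HPD arrays (0.08). HFD replicates 1 and 5 were lowest and HPD replicates 1 and 2 highest, and the arrays of each diet spread over much of the range. The log2 difference was 0.36 ± 0.17 in HPD vs HFD (limma, unadjusted p 0.0517) and -0.30 ± 0.17 in HFD vs LFD (unadjusted p 0.0993). With slide as a block the first of these was 0.10 ± 0.19. It was -0.12 within slide 2 (3 HPD arrays and 1 HFD array) and -0.042 within slide 3 (1 HPD and 2 HFD arrays). The single arrays were HFD replicate 3, the highest of its diet at 0.26, and HPD replicate 5, the lowest of its diet at -0.28. Values that rest on single arrays cannot tell whether the difference holds within slides.

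Among the core subunits of eIF3, the brightest probe of Eif3a was close to the pool on every array. It ran from -0.21 to -0.05 on LFD arrays, -0.19 to 0.22 on HFD arrays and -0.10 to 0.27 on HPD arrays, with HPD replicate 3 and HFD replicate 2 highest. Its log2 difference was 0.16 ± 0.095 in HPD vs LFD (limma, unadjusted p 0.12). On the other probes of Eif3a the LFD range enclosed the HPD range. The probe 6288 bases upstream ran from -2.79 to 1.09 on LFD and from -0.73 to 0.15 on HPD arrays. That 12110 bases upstream ran from -0.75 to 0.49 and from -0.38 to 0.31. Eif3j, a loosely bound subunit, stood at 0.16 ± 0.12 in HPD vs LFD. Eif3d, which can bind the cap of some mRNAs, stood there at -0.16 ± 0.13 and in HFD vs LFD at -0.20 ± 0.13. The core subunit Eif3c ran from -0.23 to 0.32, -0.14 to 0.14 and -0.15 to 0.26, and none of its 3 differences exceeded 0.07 in size.

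Of the eIF4 group, which unwinds the mRNA and binds its cap, 6 of 7 stood higher in HFD and 5 of 7 in HPD than in LFD. The cap-binding protein Eif4e ran from -0.17 to -0.0034 on LFD arrays (median -0.09), from -0.13 to 0.23 on HFD arrays (-0.01) and from -0.09 to 0.32 on HPD arrays (0.05). All 6 LFD arrays lay below 0, but 2 of the HPD and 3 of the HFD arrays did too. Its log2 difference was 0.18 ± 0.093 in HPD vs LFD (limma, unadjusted p 0.0745), 0.11 ± 0.093 in HFD vs LFD and 0.07 ± 0.093 in HPD vs HFD. The HPD vs LFD value was 0.21 ± 0.11 with slide as a block. It was 0.39 within slide 3 (1 HPD and 1 LFD array) and 0.086 within slide 4 (2 and 2). The slide 3 value rests on LFD replicate 3, the lowest of its diet at -0.17, and HPD replicate 5 at 0.22. These values of Eif4e are those of its brightest probe. The other, 831 bases nearer the 3′ end, read 0.37 and 0.42 on LFD replicates 5 and 6, where the one used lay below 0. On HPD arrays it ran from 0.0043 to 0.66. The helicase Eif4a1 kept between -0.27 and 0.07 on all arrays, and the scaffold-like factor Eif4g2 stood at 0.12 ± 0.084 in HFD vs LFD and -0.06 ± 0.084 in HPD vs HFD.

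The inhibitors that compete with eIF4G for eIF4E did not pass the test either. Eif4ebp1 ran from -0.38 to 0.55 on LFD arrays, from -0.57 to 0.56 on HFD arrays and from -0.33 to -0.02 on HPD arrays. All 6 HPD arrays lay below 0, within the range of the other diets. Its log2 difference was -0.20 ± 0.19 in HPD vs LFD and -0.21 ± 0.19 in HPD vs HFD (limma, unadjusted p 0.294 and 0.282). These are values of its brightest probe. The other, 199 bases upstream, lay on both sides of 0 on HPD arrays. It read 0.02 on HPD replicate 7 and -0.28, 0.11, -0.27, 0.15 and -0.10 on HPD replicates 1 to 5. Eif4ebp2 ran from -0.69 to 0.38, -0.41 to 0.87 and -0.57 to 0.28, with LFD replicates 3, 4 and 5 together at -0.69 to -0.65 and LFD replicates 1, 2 and 6 at 0.31 to 0.38. The diet differences of this probe lay between -0.14 and 0.12. Its other probe, 2397 bases upstream, did not show this split. That one read -0.01, 0.42, 0.32, -0.10, -0.02 and -0.02 on LFD replicates 1 to 6.

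**Figure D3:**
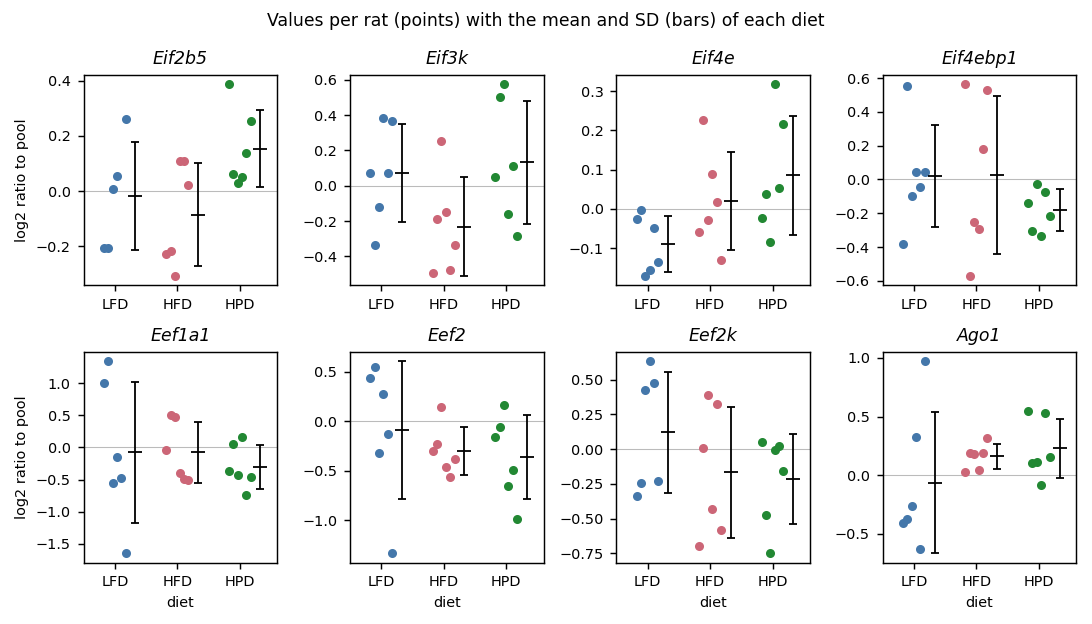
Log2 ratio to the reference pool (y axis) of 8 members in the rats of each diet (x axis), with points for rats and black bars for the mean and SD of 6 arrays (5 for Eif2b5 in LFD). The ranges of the diets overlap in every panel, and in the panels of Eef1a1 and Eef2 the LFD points spread most widely.

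The elongation factors held both the most and some of the least variable members. The main tRNA carrier Eef1a1 had values of 1.00, 1.34, -0.56, -0.15, -0.47 and -1.64 on LFD replicates 1 to 6, against -0.51 to 0.50 on HFD arrays and -0.75 to 0.16 on HPD arrays. LFD replicates 1 and 2 were the highest and LFD replicate 6 the lowest of all 18 arrays. Its mean was -0.08 ± 1.1 (SD, n = 6) in LFD, -0.08 ± 0.47 in HFD and -0.30 ± 0.34 in HPD, and its log2 difference -0.22 ± 0.39 (SE) in HPD vs LFD (limma, unadjusted p 0.576). The probe lay on chromosome 8, 83464922 to 83465059, of rn4, and whether it also binds RNA of copies of this gene was not tested. The other eEF1 genes varied far less: the SD over 18 arrays was 0.68 for Eef1a1 but 0.18 for the exchange subunit Eef1b2, 0.09 for Eef1g and 0.07 for Eef1d. The other probes of Eef1g varied more, with SDs of 0.25 and 0.38, and read -1.01 and -1.38 on LFD replicate 6.

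The translocase Eef2 and its inhibitory kinase Eef2k were both lower in HFD and HPD than in LFD without passing the test. Eef2 ran from -1.33 to 0.55 on LFD arrays (median 0.07), from -0.56 to 0.14 on HFD arrays (-0.34) and from -0.99 to 0.16 on HPD arrays (-0.32). LFD replicate 6 was lowest and LFD replicates 1 and 2 highest, so both ends came from the control diet. The log2 difference was -0.28 ± 0.27 in HPD vs LFD (limma, unadjusted p 0.319) and -0.46 ± 0.24 with slide as a block (unadjusted p 0.0744). Eef2k ran from -0.34 to 0.63, -0.70 to 0.39 and -0.75 to 0.05, with a difference of -0.34 ± 0.23 in HPD vs LFD (unadjusted p 0.161). With slide as a block that was -0.64 ± 0.26 (unadjusted p 0.0298, adjusted p 0.998). These are values of 1 of its probes. The other, 4818 bases nearer the 3′ end, gave -0.031 in HPD vs LFD (limma, unadjusted p 0.856, adjusted p 0.9999) and 0.0047 in HFD vs LFD. Eif5a, which helps the ribosome through difficult peptide bonds, stood between -0.70 and -0.04 on all 18 arrays, with diet differences no larger than 0.010.

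The Argonautes, included by their old names, were no more separated by diet. Ago1 ran from -0.63 to 0.97 on LFD arrays (median -0.32), from 0.03 to 0.32 on HFD arrays (0.19) and from -0.08 to 0.54 on HPD arrays (0.14). Its LFD range enclosed both others, with LFD replicate 6 at the top and LFD replicate 4 next at 0.33. The log2 difference was 0.29 ± 0.21 in HPD vs LFD (limma, unadjusted p 0.191). These are values of its brightest probe. The other, well above background on 16 arrays, read -1.51 on LFD replicate 6 and ran from -1.31 to -0.0020 on HPD arrays. The mean over its probes gave -0.017 in HPD vs LFD. Ago4 stood at 0.41 ± 0.28 in HPD vs HFD, with HFD replicates 6 and 1 at -1.11 and -0.90 and HPD replicate 5 at 0.79. Ago2 stood at -0.18 ± 0.15 in HPD vs LFD.

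Much of this spread lay on LFD replicates 6 and 2. LFD replicate 6 was the lowest of 18 for 13 of 44 members and the highest for 3, beside 16.9% and 18.3% of all genes tested. LFD replicate 2 was the lowest for 7 and the highest for 7, beside 21.8% and 15.4%. Without LFD replicate 6, limma gave an unadjusted p under 0.05 to 4, 3 and 2 members in the 3 comparisons, beside 4.32%, 8.78% and 4.06% of all genes, and 0 members and 0 genes passed after adjustment. In HPD vs LFD these were Ago1 at 0.50 ± 0.16, Eif5b at 0.48 ± 0.17 and Eef2 at -0.52 ± 0.21, with adjusted p 0.473, 0.485 and 0.523. In HFD vs LFD they were Ago1 at 0.43 ± 0.16, Eef2 at -0.46 ± 0.21, Eif2b4 at -0.34 ± 0.14 and Eif4g2 at 0.17 ± 0.076. For Ago1 these are values of its brightest probe, which was highest on LFD replicate 6, where its other probe read -1.51. Ago1, Eif5b and Eef2 were also related to the 5′ minus 3′ probe difference described below (r = -0.71, -0.95 and 0.75). That difference was lowest on LFD replicate 6, at -0.33, and its part in these values was not tested. Without slide 1 instead, Eef2 stood at 0.013 in HPD vs LFD. Without LFD replicate 2 the members were 1, 0 and 2 of 44, beside 5.65%, 3.55% and 4.04% of all genes. After adjustment 0 members passed. Without LFD replicates 1, 2 and 6 together the members were 2, 2 and 1 of 44. Beside these stood 2257, 1397 and 1396 of 21585 genes, each a larger share than that of the members. In that setting, added after seeing the data, Eef2k stood at -0.73 ± 0.25 in HPD vs LFD (limma, unadjusted p 0.0112, adjusted p 0.744). The arrays left out held the lowest LFD values of its brightest probe (-0.34, -0.25 and -0.23, against 0.42 to 0.63 on the others). Leaving them out therefore widens the difference by construction. Its other probe read 0.18, 0.50 and 0.42 on LFD replicates 3 to 5 and ran from -0.17 to 0.66 on HPD arrays.

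Arrays lay on 5 slides, and members differed between slides about as often as other genes. With diet in the model, 8 of 44 members reached an unadjusted p under 0.05 for slide (limma), which is 18.2%, beside 22.2% of all genes. They were Eef1a1, Eif4ebp2, Eif5b, Eef2, Eif2b4, Eif3e, Ago2 and Eif3h. After adjustment 0 members passed, beside 0.204% of all genes. Slide 1 held LFD replicates 1 and 2 and HFD replicates 1 and 2 but no HPD array. The LFD replicate 6 array shared slide 5 with HFD replicate 5 only.

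Members also varied with the place of probes along the genes. For 1857 genes outside the set with probes at least 200 bases apart in the array's design, the median log2 ratio of the most 5′ probe minus the most 3′ probe was taken on each array. It was -0.33 on LFD replicate 6, -0.20 on HPD replicate 7, 0.15 on LFD replicate 1 and 0.23 on LFD replicate 2, and between -0.10 and 0.058 on the other arrays. By diet it averaged -0.0086 ± 0.19 (SD, n = 6) in LFD, -0.0089 ± 0.069 in HFD and -0.065 ± 0.078 in HPD. Such a difference is a known sign of how complete the RNA or its labelled copies were, but what set it here was not tested.

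**Figure D4:**
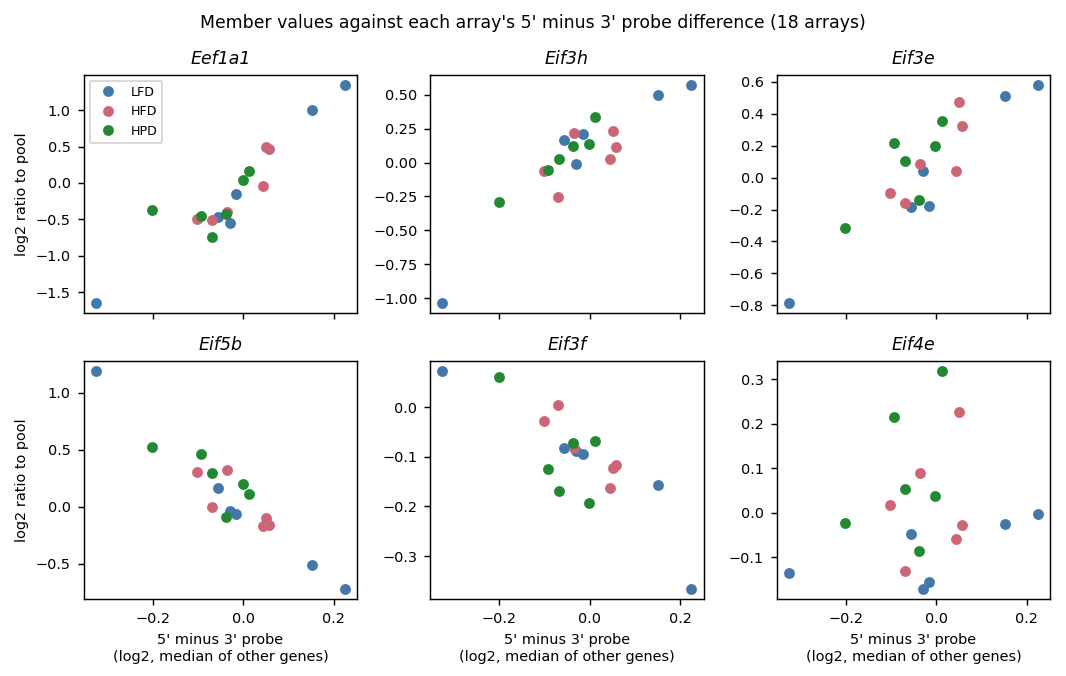
Log2 ratio to the reference pool (y axis) of 6 members against the 5′ minus 3′ probe difference of each array (x axis, log2, median over 1857 other genes), 18 arrays coloured by diet. Eef1a1, Eif3h and Eif3e have their higher values at the right of the axis, Eif5b and Eif3f at the left, and Eif4e shows little relation, with LFD 6 at the far left and LFD 1 and LFD 2 at the far right.

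Over 18 arrays, 16 of 44 members were related to this difference (adjusted p under 0.05 over the 44 relations, 100000 permutations, Pearson), and 12 by Spearman's rank correlation. Eef1a1 had r = 0.92 and rho = 0.84 (permutation p 1e-05, the smallest they can give, and 4e-05, adjusted 0.000147 and 0.000733), and r = 0.82 without LFD replicates 6 and 2. The eIF3 subunits Eif3h and Eif3e had r = 0.90 and 0.88, and 0.80 and 0.76 without these arrays. Eif5b ran the other way, with r = -0.95 and rho = -0.87, and r = -0.87 without them. Eif2b5 had r = -0.83 and rho = -0.84 over the 17 arrays with a value, and Eif3f r = -0.84 and rho = -0.66. With slide means removed, r was 0.88 for Eef1a1, 0.87 for Eif3h, -0.88 for Eif5b and -0.68 for Eif2b5, and no slide held the 6 arrays that a value within it needs. Eif4e showed little relation on its brightest probe, with r = 0.18 and rho = 0.14 (permutation p 0.463 and 0.586). Its other probe read 0.42 on LFD replicate 6, 0.66 on HPD replicate 7 and -0.28 and -0.22 on LFD replicates 1 and 2. The relation of that probe was not tested. The share of members with r over 0.5 in size was 38.6% (17 of 44, 11 positive and 6 negative), beside 40.5% of all genes tested, so the relation was not particular to translation factors.

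Probes of the same member could disagree on the same array. Of the 44 genes, 15 had probes far enough apart, and the most 5′ probe was below the most 3′ one for 13 of 15 on LFD replicate 6 (median -0.55) and for 4 of 15 on LFD replicate 2 (median 0.26). For Eif4a1 the probe used here, the most 3′ of 5, read 0.04 on LFD replicate 6. The other 4, from 536 to 3883 bases upstream, read -1.21, -1.09, -0.98 and -1.44. For Eif3a the probe used read -0.08 on that array, while those 6288 and 12110 bases upstream along the genome read -2.79 and -0.75. For Eif4b the probe used read 0.23 and the others -2.65, -1.13 and -0.01. The steady values of Eif4a1, Eif3a and Eef1g given above are therefore those of their most 3′ probes.

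**Figure D5:**
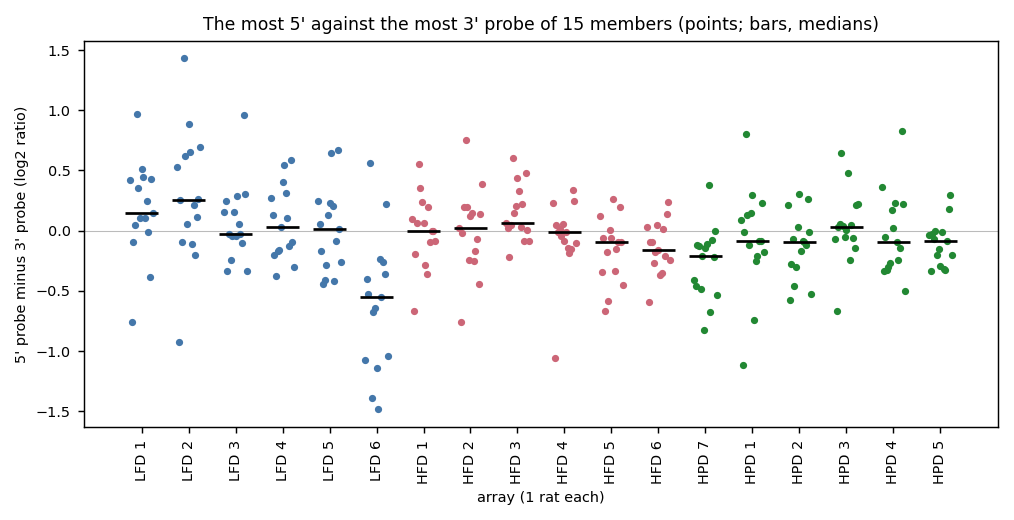
Log2 ratio of the most 5′ probe minus that of the most 3′ probe (y axis) for 15 members on each of 18 arrays (x axis), with points for genes, coloured by diet, and bars for medians. On LFD 6 the median lies at -0.55 and 13 of 15 points fall below 0, while on LFD 2 the median lies at 0.26.

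Some members followed each other closely across arrays, within and between roles. The correlation over 18 arrays, given as a description, was 0.92 between Eif3a and Eif4e, 0.89 between Eif2b4 and Eef2, 0.87 between Eif3e and Eef1a1 and 0.86 between Eif3g and Eif3h. It was -0.88 between Eif5b and Eif5a. Over the 55 pairs of eIF3 subunits the median was 0.045 (range -0.77 to 0.86), and over all 946 pairs of members it was 0.046 (range -0.88 to 0.92). With the mean of the other members, r was highest for Eif3h, at 0.75, and lowest for Eif4ebp1, at -0.71. The genes on the array most like Eef1a1 were Sbds and Cnot8, each at r = 0.98, and the one most like Eif4e was Eif3a. These pairs share their arrays, slides and reference pool.

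Promoters of members were set side by side, because many mRNAs of the translation apparatus begin with a run of pyrimidines through which mTOR controls their use, and because Eif4e is a known target of Myc, which binds CACGTG. Of 44 members 38 matched a promoter of 300 bases, 250 before to 50 after the annotated start, in RefSeq's annotation of assembly GRCr8. Eif3e, Eif3h, Eif4b, Eif4ebp1, Eef1d and Ago2 were not matched. The capitals below mark the run of C and T, at least 6 long and starting with a C within 5 bases of the start on the sense strand, for Eef1a1 (chr8:88225050-88225089, minus strand), Eef1b2 (chr9:72074071-72074110, plus strand), Eif3f (chr1:172369042-172369081, plus strand) and Eif2s3 (chrX:62933680-62933719, minus strand), each with 20 bases before the start and 20 from it:
Eef1a1: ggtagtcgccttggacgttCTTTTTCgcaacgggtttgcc
Eef1b2: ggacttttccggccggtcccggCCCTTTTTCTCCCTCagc
Eif3f: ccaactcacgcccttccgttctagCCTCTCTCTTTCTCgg
Eif2s3: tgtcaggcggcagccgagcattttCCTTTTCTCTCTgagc

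Of the 38 promoters, 7 held such a run (18.4%), beside 9.44% of the 8517 matched genes tested and 9.91% of the 33469 promoters of this length. The other holders were Eif2a, Eif2b5 and Eef1e1. Their median log2 difference was -0.014 in HFD vs LFD and 0.073 in HPD vs LFD, against 0.029 and 0.041 for the 31 members without one. The holders took both signs of relation to the 5′ minus 3′ difference, from -0.84 for Eif3f to 0.92 for Eef1a1. A match is a description of letters and not a site.

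The letters CACGTG, which read the same on both strands, stood in 8 of 38 promoters (21.1%), beside 9.4% of the matched genes tested and 6.42% of all. Eif4e held it at 2 places. The one nearer the start (chr2:229740658-229740693, plus strand) is shown in capitals beside that of Eef2 (chr7:9189294-9189329, minus strand), whose values differed from those of Eif4e on many arrays (r = -0.26):
Eif4e: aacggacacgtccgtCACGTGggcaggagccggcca
Eef2: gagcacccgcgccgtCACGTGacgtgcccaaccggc
The other 6 were Eif1b, Eif3a, Eif3b, Eif3f, Eif5a and Eef2k. The 8 had a median log2 difference of 0.012 in HFD vs LFD and 0.012 in HPD vs LFD, against 0.012 and 0.048 for the 30 without it.

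Other genes of the pathway were as little separated by diet. Of 20 measured regulators of translation, 14 stood higher in HFD and 11 in HPD than in LFD, with 0 adjusted calls. At an unadjusted p under 0.05 there was 1, the ribosomal protein Rps6, a target of mTOR signalling, at 0.26 in HPD vs LFD (unadjusted p 0.0173). It was chosen for mention after its value was seen. Of 19 cytosolic aminoacyl-tRNA synthetases and their scaffold proteins, 8 and 9 stood higher, of 5 termination and recycling factors 2 and 3, and of 7 mitochondrial translation factors 5 and 6. For these lists 0 genes had an unadjusted p under 0.05 in any of the 3 comparisons. A further 10 genes of cytosolic translation or its modifying enzymes, such as Eif6, Eif3m and Eif4h, are on the array under other names and were no members. None of them had an unadjusted p under 0.05.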

How the data were processed

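The members and gene lists were chosen with earlier results of these data known. Per the labels' protocols, Cy5-labelled RNA of 1 rat and a Cy3-labelled pool shared each array, with no dye swap. The authors deposited 1 scanner output for every array. Feature Extraction (Agilent) 10.5.1.1 is named in the submitters' processing notes. Processed signals are intensity values on a linear scale after background subtraction and dye normalization, per the file headers. The marks of each spot are 0 or 1, per the file headers. A deposited table holds log2 values; how they were made was not stated, and it served only as an alternative.

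Here log2(Cy5/Cy3) of the processed signals was taken per spot, and marked outliers were set missing (2 member values). Repeated spots were averaged within probes. The filter asked for a Cy5 signal well above background on 5 of 18 arrays or more, which 25207 of 41012 probes met. The brightest probe stood for a gene. Names came from RefSeq's table of GRCr8, which 19703 probes matched, and the file's name was kept otherwise. Probe positions are those of the array design (rn4), and exons and UTRs were not analysed here. limma 3.58.1 (R 4.3.3) fitted diet means over all 18 arrays, tested contrasts and F tests, and adjusted p by Benjamini-Hochberg over 21585 genes at 0.05. The fit was tested on simulated data. Named with values were, per comparison and direction, the 5 members with the smallest p, the 5 with the smallest p for any diet and for slide, and 16 fixed members, of which 13 were measured under the rule. Replicate numbers recur across diets, but the 16 correlations between same-numbered arrays ran from -0.31 to 0.22, so they were not taken as pairs.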

Additional observations from a re-analysis of the deposited data

Results flagged for a closer look

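Of 132 groups (44 genes in 3 diets), 11 held an array whose gap to the others was large for its group by Dixon's criterion. About 1 in 20 groups would meet it for independent, normal values, but these groups share their arrays. The share over all genes tested was not counted, so 11 cannot be read as an excess for the members. LFD replicate 6 was the lowest array for 16.9% and the highest for 18.3% of all genes. It was the low one in 5 of the 11: -1.06 for Eif2s1, -0.95 for Eif2b1, -0.62 for Eif2b4, -0.69 for Eif3g and -1.03 for Eif3h, with the nearest other LFD array at 0.0018, -0.099, 0.037, -0.031 and -0.0094. LFD replicate 2 stood low at -0.55 for Eif2b3. HFD replicate 2 stood high at 0.87 for the inhibitor Eif4ebp2, and HFD replicate 5 low at -0.46 for Ago2. Among HPD arrays, replicate 2 stood high at 0.26 for Eif3c, replicate 1 low at -0.22 for Eif4a1, and replicate 7, whose labels conflict, low at -0.32 for Eef1e1. LFD replicates 6 and 2 were also the arrays farthest out in the difference of 5′ and 3′ probes, at -0.33 and 0.23. The part of that difference in these values was not tested.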

How the results depend on the processing

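No member passed the adjusted threshold under any of 41 alternative settings, and the lowest adjusted p of a named member was 0.467. Of 1228 values of 30 named differences, 1219 stayed within 1 replicate SD and 10 changed sign. That bound is loose and does not show stability, since Eef2 in HPD vs LFD and Eef2k in HFD vs LFD changed sign within it. The sign turned for Eif2b5 in HPD vs LFD with Cy5 alone (-0.013), Ago1 in HPD vs LFD with the mean over probes (-0.017), Eef2 in HPD vs LFD without slide 1 (0.013) and Eef2k in HFD vs LFD with the most 3′ probe (0.0047). In HPD vs HFD it turned for Eif4g2 and Eif3c in the authors' table (0.12 each), Eif2b2 with slide as a block (-0.062), and Eif4ebp2 with slide as a block (0.17), without slide 1 (0.063) and without HFD replicate 2 (0.037). The authors' table of log2 values gave member medians of -0.085 in HFD vs LFD and 0.12 in HPD vs HFD. The median in HFD vs LFD also turned negative with centred ratios (-0.014), Cy5 alone (-0.021), array quality weights (-0.0051), and on leaving out LFD replicate 6 (-0.026), HFD replicate 2 (-0.011), or LFD replicates 1, 2 and 6 together (-0.0036). It turned negative in HPD vs LFD by normexp with all spots (-0.0011), and in HPD vs HFD by normexp without marked spots (-0.0049), with the mean over probes (-0.0017) and on leaving out HFD replicate 1 (-0.0038). Array quality weights called 2 genes in HPD vs LFD, and leaving out 1 array called 0 to 1, none a member. The count of genes called for slide, 44, was unstable: 554 and 509 by normexp without and with marked spots, 130 for Cy5 alone, 1801 in the authors' table, 136 with probes well above background on 18 arrays, 7 without that filter, 0 with the mean over probes, 0 without slide 1, 125 and 243 with the conflicting array as HFD or left out, and 0 to 2164 leaving out 1 array (the highest without HFD replicate 5). After seeing the data, the most 3′ probe gave 21 and leaving out LFD replicates 1, 2 and 6 gave 14. Also added then, the 5′ minus 3′ difference as a covariate was itself called for 14 members (31.8%) and 32.5% of all genes, and left 0 members called for diet. With the replicate block, 0 genes and 0 members were called in each diet comparison, so it changed no call. The causes of these shifts were not tested.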
